A study of Mus musculus with 13 samples.

Results

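The genes described here are 9 genes of cholesterol transport, sensing, export and storage in brain cells: Apoe, Apoc1, Abca1, Abcg1, Nr1h2, Nr1h3, Ch25h, Soat1 and Plin2. They were chosen by gene symbol from the annotation deposited with the count table, where each symbol names 1 row, so the 9 genes are 9 of 55493 rows. All 9 passed the filter on low counts and were among the 14985 genes tested. The bulk RNA-seq data came from the cuprizone (CPZ) model, in which a copper chelator in the chow injures oligodendrocytes, the myelin-forming cells, and the brain remyelinates after the toxin is withdrawn. RNA was taken from a brain hemisphere of male C57BL/6J mice without any transgene, and each of the 13 libraries stands for 1 mouse. The CTL group (5 libraries) ate control chow for 6 weeks, the CPZ group (4 libraries) ate chow with 0.3% cuprizone for 4 weeks, and the RCV (recovery) group (4 libraries) ate 0.3% cuprizone for 4 weeks and then control chow for 2 weeks. All mice were labelled as 6 to 8 weeks old, while the paper's methods give an older age. CPZ brains were collected at week 4, and CTL and RCV brains at week 6. A difference between CPZ and either other group thus cannot be told apart from one of collection time. The labels give group sizes of 4, 3 and 3, as the paper's methods do, whereas 5, 4 and 4 libraries were present. A figure legend of the paper gives 5, 4 and 4 samples, with bulk RNA-seq for all 13. RCV mice carry Veh in their titles but recovery as treatment. The treatment field set the groups.

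Cholesterol made by astrocytes and released from digested myelin travels between brain cells on particles that carry apolipoprotein E. Liver X receptors (LXR) are nuclear receptors that bind oxysterols, oxidised forms of cholesterol, together with a retinoid X receptor partner. Once bound they raise transcription of the efflux transporters and of apolipoprotein E, while sterol excess that is not exported can be esterified and kept in lipid droplets, as in phagocytes that have taken up myelin.

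The libraries held 4605100 to 8197289 estimated counts and 19980 to 21565 genes with at least 1 count, and mitochondrial genes took 3.76% to 5.07% of the counts. Pairs of libraries of the same group differed by more than sampling noise in all 22 pairs (chi-square per gene of 4.46 to 17.2). Of the 14985 tested genes, 1522 differed between CPZ and CTL (1148 higher and 374 lower in CPZ), 56 between RCV and CTL (54 higher and 2 lower in RCV) and 1050 between CPZ and RCV (769 higher and 281 lower in CPZ). Markers of neurons were present in every library. The summed level of 8 neuronal markers was 4718 to 6036 CPM, counts scaled to library size, across the 13 libraries. That of 6 choroid plexus markers was uneven, with 419 to 2751 CPM in CTL, 618 to 2347 CPM in CPZ and 15.2 to 1432 CPM in RCV. All 10 markers of mature oligodendrocytes fell in CPZ against CTL, with a median log2 fold change of -1.50.

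After 4 weeks of cuprizone, 7 of the 9 genes rose against CTL and none fell, where 10.2% of all tested genes were called and 7.66% were called higher. The risers were Apoe, Apoc1, Abca1, Abcg1, Ch25h, Soat1 and Plin2, and the genes that missed the threshold were both receptors, Nr1h2 and Nr1h3. The median log2 fold change of the 9 genes was 1.17, beside -0.02 over all tested genes. In 6 of the 9 genes (all risers but Apoc1) every CPZ library lay above every CTL library, a pattern seen in 8.25% of tested genes. After 2 weeks on control chow none of the 9 genes passed the threshold against CTL, where 0.374% of tested genes did. Of the 9 genes, 2 (Apoe and Abca1) had an unadjusted p below 0.05 in that comparison, as did 6.20% of tested genes, the DESeq2 Wald test called 1 gene (Apoe) and limma-voom called 0. Every RCV library lay above every CTL library in 1 of the 9 genes (Apoe) and in 2.21% of tested genes. Between CPZ and RCV, 6 of the 9 genes were higher in CPZ, where 7.01% of tested genes were called and 5.13% were called higher. In the same 6 genes every CPZ library lay above every RCV library, as in 8.26% of tested genes. RCV and CPZ were compared with the same CTL libraries, so these comparisons are not independent of each other. In a hemisphere, more cells of a type and more RNA per cell cannot be told apart.

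**Figure D1:**
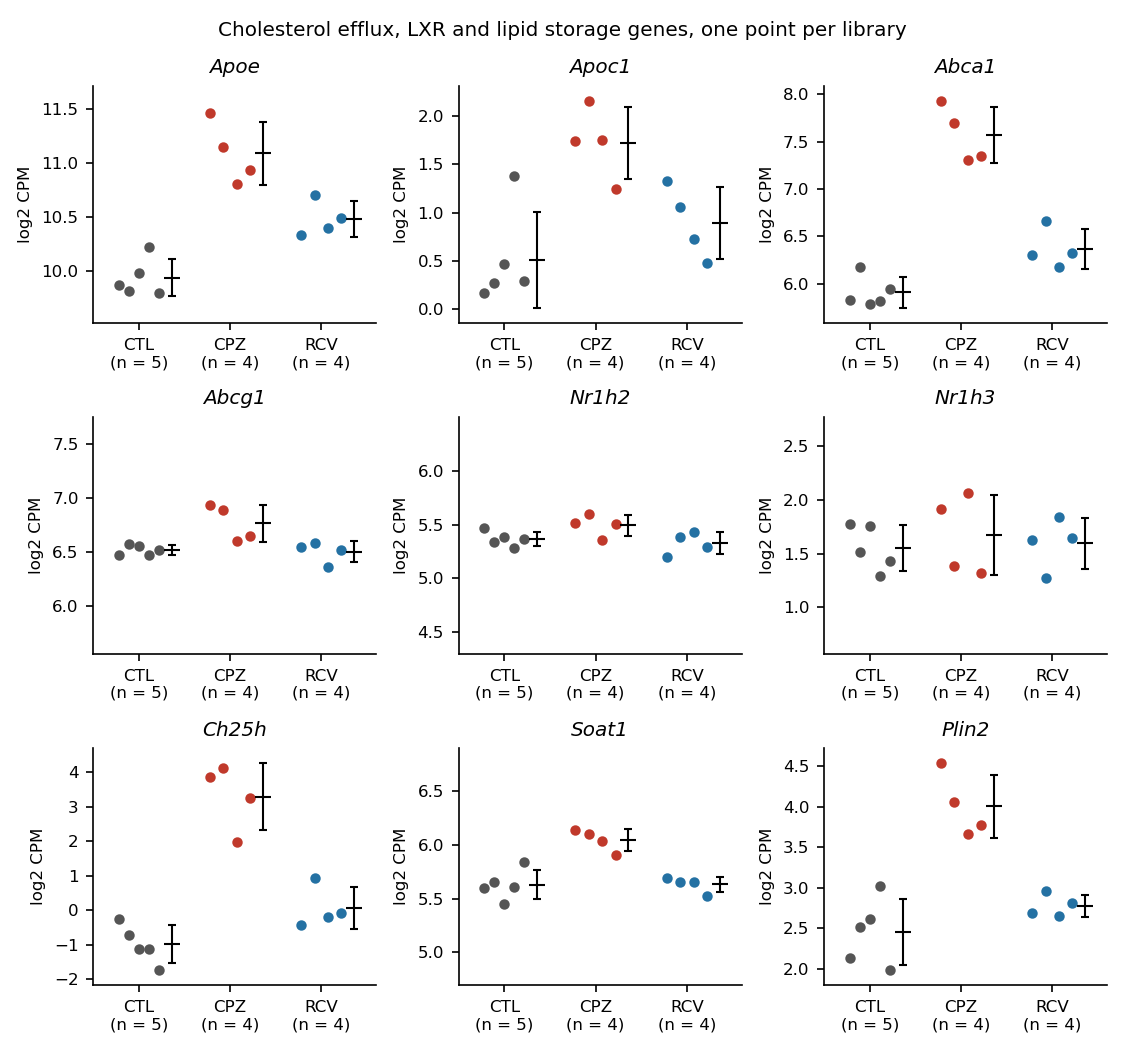
Level of each of the 9 genes in every library as log2 CPM (vertical axis, a different range in each panel) for CTL, CPZ and RCV, with 1 point per library and the mean and SD beside each group. The CPZ points of Apoe, Abca1, Ch25h and Plin2 lie above all CTL and RCV points, while those of Nr1h2 and Nr1h3 mix with the other groups.

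Levels were compared between genes as TPM, which divide by transcript length as well as by library size. Apoe stood far above the other 8 genes in each group, with a mean of 2597 TPM in CTL, 5786 TPM in CPZ and 3791 TPM in RCV. Nr1h2 was second in CTL with 58.0 TPM, and its range of 50.8 to 68.7 TPM did not overlap that of Abcg1, the next gene, at 32.2 to 43.6 TPM. Abcg1 and Soat1 overlapped in CTL, and so did each neighbouring pair among Abca1, Apoc1, Plin2 and Nr1h3, whose means ran from 13.6 to 4.99 TPM. Ch25h was the lowest gene in CTL at 0.378 TPM. In CPZ the order changed, with Abca1 at 43.3 TPM overlapping both Abcg1 and Soat1 and Ch25h at 18.0 TPM (5.94 to 28.0), above Nr1h3 at 4.09 TPM (2.95 to 5.64).

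The apolipoproteins were the first group. Apoe encodes the main lipid carrier protein of brain lipoproteins, which astrocytes make at rest and microglia add to when activated. The gene lies on chromosome 7 (chr7:19696109-19699188, minus strand, GRCm38). Its level was 935, 901, 1005, 1194 and 888 CPM in CTL 1 to 5, 2832, 2270, 1793 and 1951 CPM in CPZ 1 to 4, and 1286, 1665, 1347 and 1440 CPM in RCV 1 to 4. The 3 groups did not overlap: the lowest CPZ library was above the highest RCV library, and the lowest RCV library was above the highest CTL library. Apoe rose in CPZ against CTL by 1.17 on the log2 scale (SE 0.13, adjusted p = 1.97e-05), from 985 ± 126 CPM (SD, n = 5) to 2212 ± 459 CPM (SD, n = 4). It was 0.62 higher in CPZ than in RCV (SE 0.14, adjusted p = 0.0111). The RCV mean of 1434 ± 166 CPM (SD, n = 4) differed from CTL by 0.54 (SE 0.13), with an adjusted p of 0.119 that misses the threshold. That adjusted p depended on the test, since it was 0.0068 with the DESeq2 Wald test and 0.0324 when only the RCV and CTL libraries were fitted. It was also 0.0298 without CPZ 1, a library that enters this comparison only through the shared estimate of the spread.

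Apoc1 encodes a small apolipoprotein of the same particles, and its gene lies 3448 bases from Apoe (chr7:19689481-19692660, minus strand). It was weakly detected, with 6, 6, 7, 15 and 5 counts in CTL 1 to 5, 21, 34, 22 and 16 counts in CPZ 1 to 4, and 15, 11, 7 and 5 counts in RCV 1 to 4. CTL 4 stood apart from the other CTL libraries and its 2.29 CPM exceeded the 2.07 CPM of CPZ 4, so the groups overlapped. Apoc1 rose in CPZ against CTL by 1.34 on the log2 scale (SE 0.33, adjusted p = 0.0132), and the call was lost without CPZ 2 (adjusted p = 0.0655). Its differences were 0.45 between RCV and CTL and 0.90 (SE 0.34, adjusted p = 0.152) between CPZ and RCV. The other apolipoprotein genes of this cluster were too low to test, with Apoc2 at 1, 25 and 4 counts and Apoc4 at 0, 15 and 1 counts summed over the CTL, CPZ and RCV libraries.

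Of the efflux transporters, Abca1 moved further than Abcg1. Abca1 passes cholesterol and phospholipid to lipid-poor apolipoproteins and spans chr4:53030787-53159895 (minus strand). Its level was 56.4, 72.2, 54.7, 56.0 and 61.2 CPM in CTL 1 to 5, 243, 208, 158 and 162 CPM in CPZ 1 to 4, and 78.7, 101, 72.0 and 79.8 CPM in RCV 1 to 4. All CPZ libraries lay above all others, and RCV 3 lay just below CTL 2. Abca1 rose in CPZ against CTL by 1.68 on the log2 scale (SE 0.14, adjusted p = 2.03e-06), which is a 3.21-fold change with a range of 2.65 to 3.87 at 2 SE. It was 1.21 higher in CPZ than in RCV (SE 0.14, adjusted p = 0.00035). Between RCV and CTL it differed by 0.47 (SE 0.14, adjusted p = 0.331).

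Abcg1 (chr17:31057675-31117988, plus strand) loads further cholesterol onto lipoproteins that already carry lipid. Its level was 88.4, 94.7, 93.4, 88.2 and 91.0 CPM in CTL 1 to 5, 122, 118, 96.4 and 99.5 CPM in CPZ 1 to 4, and 93.2, 95.3, 82.0 and 91.3 CPM in RCV 1 to 4. CPZ 3 and CPZ 4 lay close to the highest CTL library, and the difference rested mainly on CPZ 1 and CPZ 2. Abcg1 rose in CPZ against CTL by 0.26 (SE 0.07, adjusted p = 0.0312) and was 0.27 higher in CPZ than in RCV (SE 0.08, adjusted p = 0.0474). The first call was lost in 9 of 23 alternatives. Its adjusted p was 0.129 without CPZ 1, 0.123 without CPZ 2, 0.0704 without CTL 1, 0.0612 without CTL 4 and 0.0514 without CTL 5. With limma on TPM it was 0.219 to 0.332, and with a replicate block 0.0624. The second call was lost in 15 of 23, with an adjusted p of 0.369 to 0.508 on TPM.

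**Figure D2:**
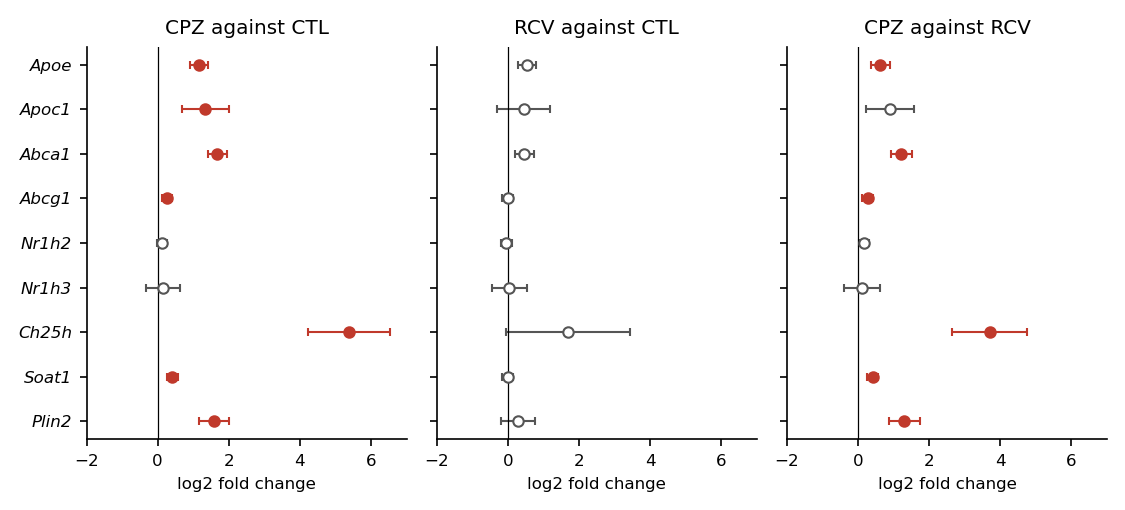
Log2 fold change of each gene (horizontal axis) in the 3 comparisons, with bars of 2 SE to each side; filled red points passed the threshold of 0.05 on the adjusted p and open points did not. In CPZ against CTL 7 points are filled, Ch25h at 5.39 is farthest from 0, and no point is filled in RCV against CTL.

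The receptors themselves did not pass the test. Nr1h2 encodes LXR beta, the form found in most cells, and lies at chr7:44549616-44553951 (minus strand). Its level was 38.5 to 43.9 CPM in CTL (median 40.9), 40.8 to 48.0 CPM in CPZ (median 45.2) and 36.5 to 42.9 CPM in RCV (median 40.1), and the ranges overlapped. Its log2 fold change was 0.13 between CPZ and CTL (SE 0.07, adjusted p = 0.307), with an interval of -0.0099 to 0.27 at 2 SE, and -0.04 between RCV and CTL. On TPM the picture differed: all CPZ libraries (69.3 to 78.9 TPM) lay above all CTL libraries (50.8 to 68.7 TPM), and limma on log2(TPM + 1) gave 0.33 with an adjusted p of 0.0313. Between CPZ and RCV the difference was 0.17 on counts (SE 0.07, adjusted p = 0.221) and 0.39 on log2(TPM + 1) (adjusted p = 0.0233). Nr1h3 encodes LXR alpha, the form of macrophages and liver, and lies at chr2:91184061-91202834 (minus strand). It had 13 to 28 counts per library, with 2.65 ± 0.432 CPM (SD, n = 5) in CTL, 2.96 ± 0.839 CPM (SD, n = 4) in CPZ and 2.75 ± 0.481 CPM (SD, n = 4) in RCV. Its log2 fold change was 0.14 between CPZ and CTL (SE 0.24, adjusted p = 0.804), and the interval of -0.33 to 0.61 at 2 SE does not show equal levels. The sign turned to -0.23 on log2(TPM + 1). Gm13783, a transcript on the same strand that overlaps Nr1h3 over 6873 bases, had 0 to 2 counts per library.

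Ch25h showed the widest difference of the 9 genes. It encodes cholesterol 25-hydroxylase, an interferon-inducible enzyme of macrophages and microglia whose product, 25-hydroxycholesterol, is an oxysterol. The gene has its place at chr19:34473778-34475164 (minus strand). It had 4, 2, 1, 1 and 0 counts in CTL 1 to 5, 99, 140, 26 and 71 counts in CPZ 1 to 4, and 3, 10, 3 and 3 counts in RCV 1 to 4. Every CPZ library lay above every other library, CPZ 3 was the lowest of its group, and RCV 2 was the highest outside it. Ch25h rose in CPZ against CTL by 5.39 on the log2 scale (SE 0.57, adjusted p = 1.46e-05) and was 3.70 higher in CPZ than in RCV (SE 0.53, adjusted p = 0.000692). As a ratio of summed counts scaled to library size, 336 counts in CPZ against 8 in CTL gave 45.3-fold, with an exact conditional 95% interval of 22.7 to 106 that covers counting error only. Between RCV and CTL the fitted difference was 1.69 (SE 0.87, adjusted p = 0.851) and the ratio of 19 to 8 counts was 3.39-fold (1.42 to 8.94, counting error only). These ratios leaned on single libraries, as leaving each out in turn, a check chosen after seeing the data, showed: CTL 1 held 4 of the 8 CTL counts, and without it they were 70.2-fold and 5.24-fold. RCV 2 held 10 of the 19 RCV counts, and without it the ratio of RCV to CTL was 2.20-fold. The opposite-strand transcript Gm26902 overlaps Ch25h over 357 bases and had 2 to 20 counts per library. Its mean was 6 counts in CTL, 14 in CPZ and 4.75 in RCV, so it was also highest in CPZ. Since strand use in counting is not given in the sources used here, reads in the overlap cannot be told apart.

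Soat1 and Plin2 belong to storage. Soat1 encodes the enzyme that esterifies cholesterol in the endoplasmic reticulum (chr1:156424525-156474331, minus strand). Its level was 48.0, 50.1, 43.5, 48.5 and 56.8 CPM in CTL 1 to 5, 69.9, 68.1, 65.1 and 59.5 CPM in CPZ 1 to 4, and 51.5, 49.9, 50.0 and 45.8 CPM in RCV 1 to 4. CPZ 4 was the closest to CTL 5, and the CPZ group did not overlap the others. Soat1 rose in CPZ against CTL by 0.41 (SE 0.07, adjusted p = 0.00125), was 0.41 higher in CPZ than in RCV (SE 0.08, adjusted p = 0.00465) and differed by 0.00 between RCV and CTL. The call was lost on TPM, with an adjusted p of 0.167 to 0.271 over 3 TPM settings and a log2 difference of 0.48 to 0.50. The call between CPZ and RCV was lost on the same settings, with an adjusted p of 0.180 to 0.290 and a log2 difference of 0.54 to 0.56. In CTL the coefficient of variation of Soat1 was 9.80% in CPM and 29.0% in TPM.

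Plin2 encodes perilipin 2, the coat protein of lipid droplets in cells other than adipocytes (chr4:86648386-86670060, minus strand). It had 4.08, 5.40, 5.84, 7.80 and 3.67 CPM in CTL 1 to 5, 22.9, 16.4, 12.3 and 13.4 CPM in CPZ 1 to 4, and 6.16, 7.45, 5.97 and 6.72 CPM in RCV 1 to 4. The CPZ libraries lay above all others, and the RCV libraries lay inside the CTL range. Plin2 rose in CPZ against CTL by 1.59 on the log2 scale (SE 0.21, adjusted p = 6.61e-05) and was 1.30 higher in CPZ than in RCV (SE 0.22, adjusted p = 0.00187). Its difference between RCV and CTL was 0.29 (SE 0.24, adjusted p = 0.976).

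Promoter sequence was at hand for 7 of the 9 genes (all but Apoc1 and Abcg1) and is shown for the 4 with the largest log2 fold changes among them, since LXR binds a direct repeat of AGGTCA spaced by 4 bases, called DR4. Each sequence covers the 250 bases before the start given by RefSeq (GRCm38.p6), 5′ to 3′ on the gene's strand. Capitals mark the stretch closest to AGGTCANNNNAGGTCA on either strand. Where several were equally close (7 in this Apoe window and 2 in Plin2), the first on the gene's own strand is marked, so an equally close stretch on the opposite strand may lie before it.
Abca1, chr4:53159896-53160145: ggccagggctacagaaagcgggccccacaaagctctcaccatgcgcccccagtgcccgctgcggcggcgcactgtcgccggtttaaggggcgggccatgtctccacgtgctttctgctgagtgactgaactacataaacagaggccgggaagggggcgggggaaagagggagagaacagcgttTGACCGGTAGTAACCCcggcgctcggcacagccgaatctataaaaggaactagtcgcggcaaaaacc
Apoe, chr7:19699189-19699438: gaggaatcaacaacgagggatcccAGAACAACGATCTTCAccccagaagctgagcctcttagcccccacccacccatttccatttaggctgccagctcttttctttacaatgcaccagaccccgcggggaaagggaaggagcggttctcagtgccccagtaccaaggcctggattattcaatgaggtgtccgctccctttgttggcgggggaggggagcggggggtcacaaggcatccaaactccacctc
Ch25h, chr19:34475149-34475398: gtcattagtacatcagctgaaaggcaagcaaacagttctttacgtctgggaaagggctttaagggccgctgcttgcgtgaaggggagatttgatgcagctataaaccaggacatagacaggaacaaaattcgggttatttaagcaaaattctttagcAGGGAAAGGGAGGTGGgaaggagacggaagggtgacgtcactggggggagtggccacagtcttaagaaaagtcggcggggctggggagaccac
Plin2, chr4:86670060-86670309: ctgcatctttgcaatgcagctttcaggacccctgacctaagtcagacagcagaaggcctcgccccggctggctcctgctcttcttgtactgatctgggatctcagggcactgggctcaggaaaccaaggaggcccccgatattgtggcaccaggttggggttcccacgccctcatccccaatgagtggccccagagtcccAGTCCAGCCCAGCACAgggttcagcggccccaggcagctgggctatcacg
The full repeat was in none of these windows, and in 0.0152% of 32841 promoter windows of the same length. The Abca1 stretch, at positions -67 to -52 from the start and on the opposite strand, differed from the repeat at 3 of its 12 fixed letters, as close a match as 18.5% of all windows held. The closest stretches of Ch25h and Plin2 differed at 4 letters, which 70.6% of windows match or better, and that of this Apoe window, which ends at the annotated start of the gene, differed at 5. RefSeq gives 2 further Apoe windows (chr7:19698622-19698871 and chr7:19698399-19698648), whose closest stretches differed at 4. Abca1 also held the letters CACGTG, an E-box, beginning at position -147, as did 6.02% of all windows. These matches describe letters in a window and say nothing of binding.

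The position of each RCV library between the CTL mean (0) and the CPZ mean (1) was computed on log2 CPM for the 7 genes called in CPZ. Apoe kept the largest share, with 0.341, 0.665, 0.399 and 0.483 in RCV 1 to 4, a mean of 0.472 ± 0.141 (SD, n = 4). Abca1 was at 0.276 ± 0.126, Ch25h at 0.246 ± 0.141 and Plin2 at 0.208 ± 0.0885 (SD, n = 4 each), and each of their RCV libraries was above 0. Ch25h had 0 to 4 counts in CTL and 3 to 10 in RCV, so its position leans on the prior count of 2 used for log2 CPM. Soat1 was at 0.0031 ± 0.177 and Abcg1 at -0.05 ± 0.380 (SD, n = 4 each), so their libraries fell on both sides of the CTL mean. Apoc1 was spread from -0.032 to 0.672. RCV 2 was the highest RCV library for Apoe, Abca1, Abcg1, Ch25h and Plin2. The differences between genes were not tested, and on log2(TPM + 1) the mean of Plin2 moved to -0.038.

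**Figure D3:**
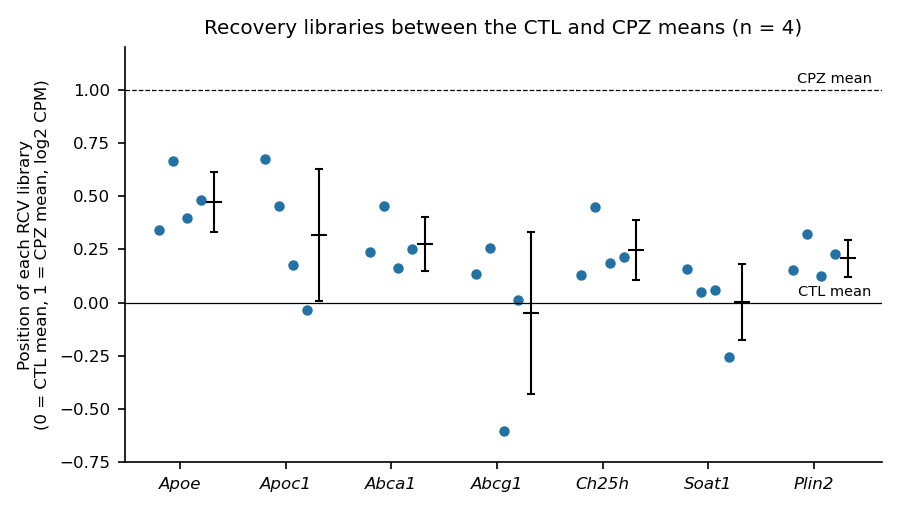
Position of each RCV library (1 point each, n = 4) between the CTL mean, the line at 0, and the CPZ mean, the dashed line at 1, on log2 CPM, with the mean and SD beside the points. All Apoe points lie between 0.341 and 0.665, while the Soat1 and Abcg1 points lie around 0.

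Markers of microglia, like 7 of the 9 genes, were higher in CPZ than in CTL. All 15 microglial markers rose in CPZ against CTL (median log2 fold change 2.57), and their summed level was 448 to 547 CPM in CTL, 1624 to 3455 CPM in CPZ and 691 to 950 CPM in RCV, with no marker at 0. The mean log2 CPM of the list was 7.42, 7.30, 6.33 and 6.72 in CPZ 1 to 4, and CPZ 1 and CPZ 2 were also the highest CPZ libraries for Apoe, Abca1, Abcg1, Ch25h, Soat1 and Plin2. In RCV it was 5.29, 5.49, 5.10 and 5.46. RCV 2 was the highest, as for Apoe, Abca1, Abcg1, Ch25h and Plin2, whereas Soat1 and Apoc1 were highest in RCV 1. The summed microglial level of every RCV library lay above that of every CTL library. Soat1 and Abcg1, by contrast, differed between RCV and CTL by 0.0012 (SE 0.08) and -0.0099 (SE 0.07). Of 10 astrocyte markers 5 rose in CPZ, led by Gfap at 2.43, with a summed level of 4550 to 4962 CPM in CTL, 5328 to 6331 CPM in CPZ and 5300 to 5929 CPM in RCV. The 10 mature oligodendrocyte markers summed to 4307 to 8055 CPM in CTL, 1825 to 3119 CPM in CPZ and 5643 to 9658 CPM in RCV. Of 8 markers of border macrophages 6 had a mean under 1 CPM in CTL and in CPZ, and among 6 markers of blood monocytes 5 were under 1 CPM in every group, while the remaining one, Fn1, which other cells also make, rose in CPZ by 1.53. The part of these cell markers in the changes of the 9 genes was not tested.

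Other genes of the same pathways were read from 7 lists that held 129 different genes, 6 of them in more than 1 list. Over all tested genes, 10.2% were called in CPZ against CTL and 7.66% were called higher. Between CPZ and RCV these shares were 7.01% and 5.13%, and 0.374% were called in RCV against CTL. Lists with 1 gene called higher lie near these shares for CPZ, and no list was tested against them. Among lipoprotein and uptake genes, 4 of 17 tested members rose in CPZ against CTL, with a median log2 fold change of 0.06. The risers were the scavenger receptor Msr1 (4.42, SE 0.60), the lipid-sensing receptor Trem2 (3.04, SE 0.26), which is also one of the microglial markers, lipoprotein lipase Lpl (2.47, SE 0.29) and the apolipoprotein Clu (0.21, SE 0.06, adjusted p = 0.0496). Lrp1, a receptor for apolipoprotein E particles, had 0.20 (SE 0.06, adjusted p = 0.0564) and did not pass.

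Among other LXR target genes, 5 of 14 tested members rose in CPZ and 2 fell, with a median of 0.23. Mylip, which encodes a ubiquitin ligase, rose by 0.90 (SE 0.16, adjusted p = 0.000958), and the lipogenic factor Srebf1 rose by 0.68 (SE 0.09, adjusted p = 9.71e-05). The phagocytic receptor Mertk rose by 0.83 (SE 0.15) and Tnfaip2 by 1.98 (SE 0.46), and Lpl was the fifth riser. The fatty acid genes Scd1 and Fasn fell by 0.50 (SE 0.09) and by 0.33 (SE 0.05), and the cause of these falls was not tested. Against RCV, the CPZ level was higher for 3 of 14 genes (Lpl, Srebf1 and Mylip) and lower for 1 (Fasn).

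The list of 16 LXR partners and related nuclear receptors had a median of 0.0087 in CPZ against CTL. In it 1 gene rose (Srebf1) and 1 fell (Srebf2). Both encode sterol response factors, not nuclear receptors, and the other 14 genes were not called. Srebf2, the master regulator of cholesterol synthesis, fell by 0.33 (SE 0.05, adjusted p = 0.000161), and the retinoid X receptors Rxra (0.0047, SE 0.09) and Rxrb (-0.041, SE 0.07) did not pass. Of 17 oxysterol genes, 1 rose and 2 fell, with a median of -0.017. Gpr183, the receptor for a product made from 25-hydroxycholesterol, rose by 2.72 (SE 0.32, adjusted p = 2.40e-05), from 0.879 to 5.94 CPM. The falling genes are known for other roles than making oxysterols: Cyp51, an enzyme of cholesterol synthesis, fell by 0.43 (SE 0.08) and Insig1, a sterol sensor, fell by 0.51 (SE 0.07). The neuronal 24-hydroxylase Cyp46a1 had -0.24 (SE 0.07, adjusted p = 0.0553) and Cyp7b1, which acts on 25-hydroxycholesterol, had -0.065 (SE 0.13).

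Among sterol ester and lysosomal cholesterol genes, 5 of 15 rose in CPZ and 1 fell, with a median of 0.05. Npc2, which binds cholesterol inside lysosomes, rose by 1.07 (SE 0.14, adjusted p = 0.000145), Lipa, the lysosomal lipase that frees cholesterol from its esters, by 0.56 (SE 0.12), and the membrane proteins Lamp2 by 0.81 (SE 0.08) and Lamp1 by 0.39 (SE 0.07). Tspo, a mitochondrial membrane protein used as a marker of glial activation, rose by 1.38 (SE 0.31), and the sterol carrier Stard4 fell by 0.53 (SE 0.08). Npc1, the partner of Npc2, had -0.13 (SE 0.10, adjusted p = 0.483). Of the 16 other ABC transporters tested, Abca9 (0.95, SE 0.15) and the peroxisomal Abcd2 (0.45, SE 0.13) rose, while Abca8a fell by 2.14 (SE 0.21) and Abca2, which is abundant in oligodendrocytes, fell by 0.57 (SE 0.08). Abca7 and Abcg4, close relatives of Abca1 and Abcg1, had -0.022 (SE 0.10) and -0.11 (SE 0.08).

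The list of lipid droplet and triglyceride genes held no member that passed in CPZ against CTL, with 0 of 23 tested genes called and a median of -0.026. The perilipins Plin3 (-0.15, SE 0.17) and Plin4 (-0.66, SE 0.45), and the triglyceride synthases Dgat1 (-0.061, SE 0.10) and Dgat2 (-0.18, SE 0.11), were among them, and Plin2 is not part of that list. Plin4 was 1.68 lower in CPZ than in RCV (SE 0.44, adjusted p = 0.0336), with overlapping groups. Between CPZ and RCV, the counts higher and lower in CPZ were 1 and 3 of 16 ABC transporters and 1 and 1 of 16 genes in the list of LXR partners. They were 1 and 1 of 17 oxysterol genes, 4 and 0 of 15 sterol ester and lysosomal genes and 1 and 2 of 23 lipid droplet genes. Over all 7 lists, 1 gene passed in RCV against CTL: Clu rose by 0.31 (SE 0.06, adjusted p = 0.0479), from 634 to 787 CPM. The number of genes called in its list in that comparison ran from 0 to 2 over 23 alternatives. It stayed at 1 in 6 of them and moved in 17.

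**Figure D4:**
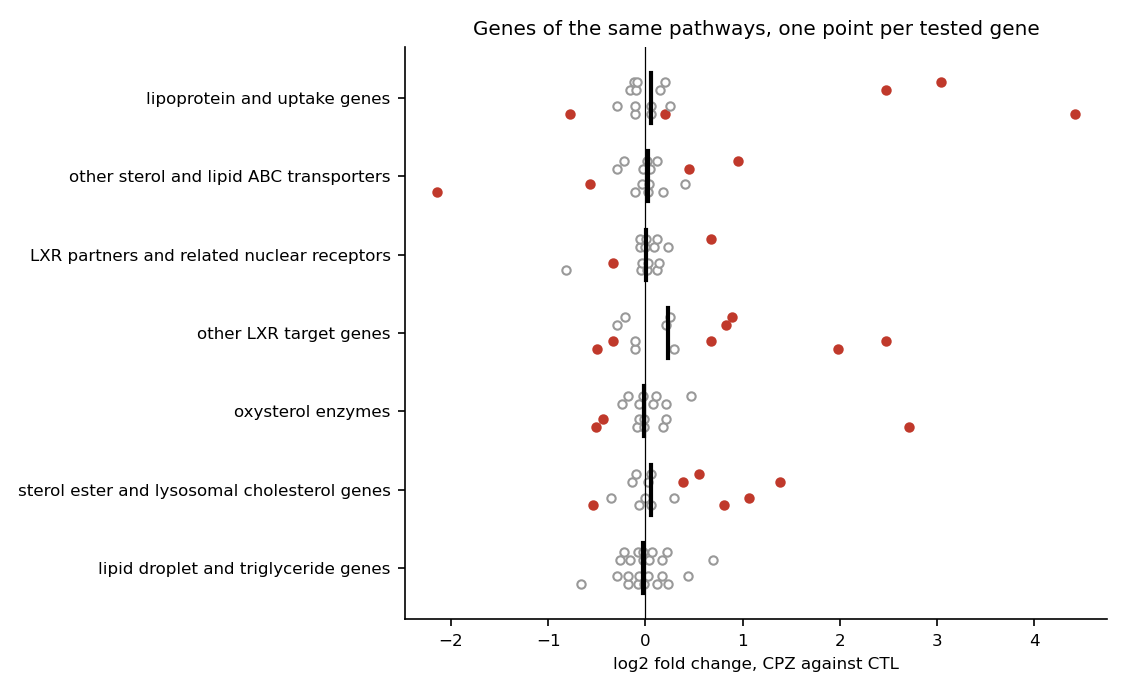
Log2 fold change in CPZ against CTL (horizontal axis) of each tested gene of the 7 pathway lists, where filled red points passed the threshold, open points did not, vertical offsets carry no value and the black bar is the list's median. The medians lie between -0.026 and 0.23, and no point of the lipid droplet list is filled. The genes above 2 are Msr1, Trem2, Gpr183 and Lpl (which stands in 2 lists), and Abca8a lies lowest at -2.14.

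The genes whose profile over the 13 libraries was most like each member were found by the root mean square difference of centred log2 CPM. For Abca1 they were Itgb5 (0.101) and the microglial receptor Cx3cr1 (0.105), where Abca1 itself varied by 0.726 around its mean. For Apoe they were the lysosomal genes Man2b1 (0.132) and Tcirg1 (0.133) at a variation of 0.512, for Plin2 Msn (0.171) and Tor3a (0.180) at 0.730, and for Ch25h Gpr84 (0.514) and Gpnmb (0.538) at 1.92. For Apoc1 they were Adcy7 (0.281) and Galns (0.284) at 0.627. Soat1 was nearest to Cyp2j9 (0.0856) and Capza1 (0.0871), Abcg1 to Lars (0.0601) and Rhoa (0.0613), Nr1h2 to Phkb (0.0673) and Cdc42se1 (0.0678), and Nr1h3 to Gm43379 (0.144) and Emilin1 (0.165). These 4 genes varied by 0.103 to 0.248 around their means.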

How the data were processed

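Bulk RNA-seq of 13 mouse hemispheres was analysed. The authors deposited estimated counts and TPM per gene, and the submitters' processing notes name STAR, RSEM and the mm10 build, with no versions. Estimated counts, which RSEM apportions among transcripts and genes, were rounded to whole numbers. TPM, scaled by the authors to transcript length and library, was used for levels between genes. Of 55493 rows 92 were spike-ins, all at 0 counts. One edgeR (4.0.16) quasi-likelihood fit with TMM scaling covered all libraries (filterByExpr; 14985 genes), with Benjamini-Hochberg adjustment over all tested genes at 0.05 and limma 3.58.1 and DESeq2 1.42.0 as alternatives. CPM are TMM-scaled, log2 CPM used a prior count of 2, SE is the log2 fold change over the root of F, and means are ± SD. Counting sets a floor on precision: genes under about 10 counts per library, such as Ch25h in CTL, are known only coarsely. No batch is given in the sources used here. P-values of this fit set the difference between groups against the spread between mice, estimated over all 13 libraries with information shared across genes. The 9 genes, the lists and the rule for named genes (the 9, called genes of each list up to 6 by size, relatives that complete a family, and the 2 nearest profiles) were chosen with earlier results of these data known. Positions are from GENCODE M21 (GRCm38), in which 54349 of 55493 identifiers were found, and promoters from RefSeq. A gene of the lists is not reported here and is left out of the counts of genes that fell.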

Additional observations from a re-analysis of the deposited data

Results flagged for a closer look

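Apoc1 in CTL was the one value set apart by a single sample. CTL 4 had 2.29 CPM, whereas the other CTL libraries had 0.816 to 1.08 CPM, and its gap to the nearest of them was 0.752 of the group's range, above Dixon's 95% critical value of 0.71 for 5 samples. Of 27 groups examined 1 was set apart in this way, and chance alone marks about 1 in 20.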

How the results depend on the processing

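Over 23 alternatives the direction and the side of the threshold were unchanged in 185 of 205 values of the 9 genes in CPZ against CTL, 172 of 203 in RCV against CTL and 182 of 205 in CPZ against RCV, and 14, 0 and 18 calls were lost. The cause of the differences was not tested. Called genes in CPZ against CTL numbered 992 with limma on log2(TPM + 1) and no filter. In RCV against CTL they numbered 123 with DESeq2, 12 with limma-voom, 22 with log2(TPM + 1) and no filter, 20 with at least 10 counts in every library (fewer genes tested) and 21 to 87 when each library was left out, the lowest without RCV 2 and the highest without CPZ 3. In CPZ against RCV they numbered 599, 508 and 487 on log2(TPM + 1), log2(TPM + 0.1) and log2(TPM + 1) with no filter, and 632 to 1170 when each library was left out (632 without CPZ 1, 693 without CPZ 2). Of the 9 genes, 1 (Apoe) passed in RCV against CTL with DESeq2 and with only the compared groups, and 0 to 1 when each library was left out. The share remaining for Plin2 was -0.038 on log2(TPM + 1).

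Signs turned only for differences that missed the threshold. On log2(TPM + 1), log2(TPM + 0.1) and the former with no filter, Nr1h3 in CPZ against CTL was -0.23, -0.27 and -0.23. In RCV against CTL, Nr1h3 was -0.33, -0.40 and -0.33, Abcg1 0.031, 0.031 and 0.031, Soat1 -0.060, -0.061 and -0.060, and Plin2 -0.043, -0.044 and -0.043. Soat1 was also -0.0085 with no filter on counts and -0.0025 with only the compared groups. When each library was left out, Nr1h3 ran from -0.0073 to 0.26 in CPZ against CTL, from -0.057 to 0.15 in RCV against CTL and from -0.041 to 0.23 in CPZ against RCV, and in RCV against CTL Abcg1 ran from -0.036 to 0.034, Nr1h2 from -0.076 to 0.0029 and Soat1 from -0.041 to 0.050.

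Libraries with the same replicate number did not deviate together, with correlations of -0.18 to 0.047 in CPZ and CTL, -0.20 to 0.14 in RCV and CTL and -0.13 to -0.035 in CPZ and RCV, and in each comparison 0 of 4 libraries correlated best with its own number. With a replicate block the called genes numbered 1172 between CPZ and CTL, 42 between RCV and CTL and 755 between CPZ and RCV, and 5, 0 and 5 of the 9 genes passed. Apoc1 (adjusted p = 0.0875) and Abcg1 (0.0624) missed the threshold in CPZ against CTL. Depth limits Ch25h in CTL and RCV, Apoc1 and Nr1h3, which had under 30 counts in nearly all of those libraries.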
